A study of Chlamydomonas reinhardtii with 2 samples.

Results

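The intron-rich loci of the nitrogen-replete library were the transcribed places on sequences 1 to 17 at which 5 or more different introns were each seen in at least 2 reads. They numbered 233 of 14103 loci in all, and of 1825 loci on these sequences with at least 1 such intron. The library was a cDNA pool of the single-celled green alga Chlamydomonas reinhardtii, strain dw15.1 (genotype cw15, nit2, mt+), read by pyrosequencing. The N-replete cells had spent 48 hours in 50 mL of TAP medium with 10 mM ammonium after growth to 5000000 cells per mL. The N-deprived cells, the other portion of the split culture, went to TAP medium without nitrogen for the same time and were not analysed here. The labels give 1 library per condition, so no value below has a replicate error and no difference was tested. Intervals in brackets are 95% intervals that cover counting error only. Those on reads treat each read as independent. PCR copies of a cDNA are not independent molecules, so these intervals can be too narrow.

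Introns are stretches of a primary transcript that the spliceosome removes. It cuts at a donor site at the 5' side of the intron and an acceptor site at the 3' side, and joins the flanking exons. Most introns of nuclear genes begin with GT and end with AG. In many animals and plants the first intron of a gene tends to be its longest. A cDNA read that spans a splice junction aligns to the genome in blocks, and the gap between the blocks is the intron. A read of this length shows only part of a transcript, so the introns of a locus were collected over many reads.

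The members were chosen by the number of introns and by the reads behind each, so these numbers describe the choice and support nothing. Together they held 1563 introns, or 33.8% of the 4625 introns seen in at least 2 reads in the whole library. Exactly 5 introns were found at 80 members and 10 or more at 25, with a median of 6 and a highest number of 16. Just outside the limit lay 130 loci with 4 introns. The loci at the limit also differed in depth: the 80 members with 5 introns had a median of 44 reads, and the 130 loci with 4 introns had a median of 31.5. Membership thus depends on depth as well as on the transcript.

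**Figure D1:**
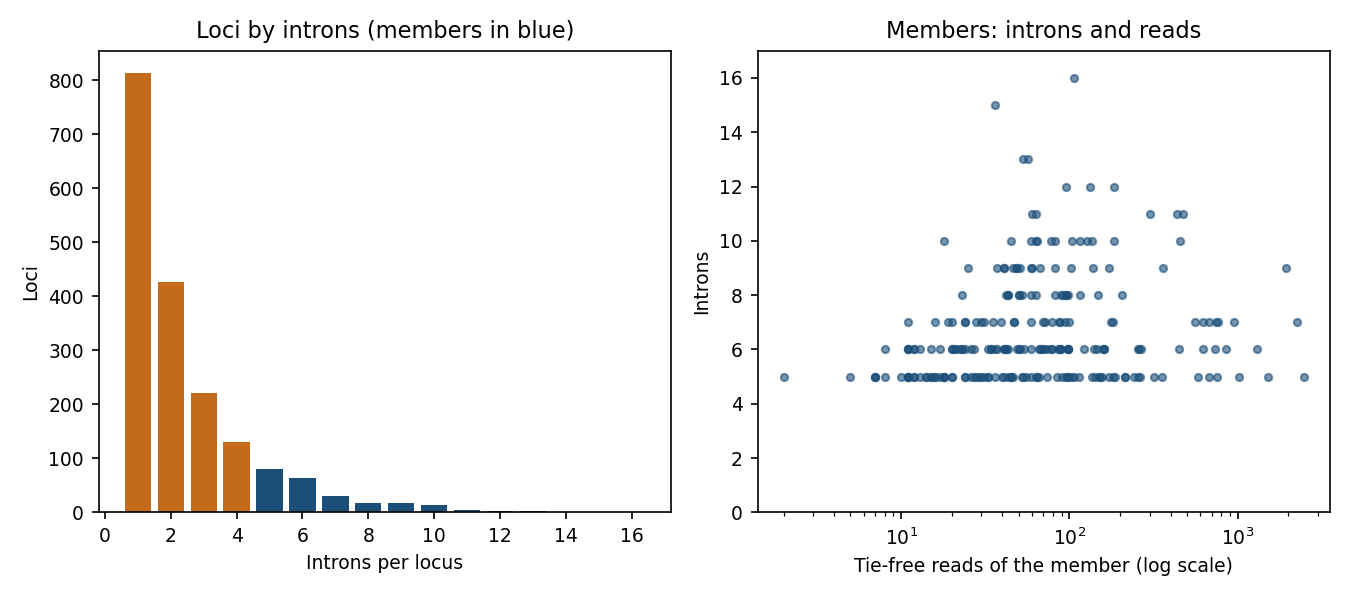
Left, number of loci on sequences 1 to 17 (y axis) by number of introns seen in at least 2 reads (x axis), with the 233 members in blue and the 1592 loci with 1 to 4 introns in orange. Right, number of introns of each member (y axis) against its tie-free reads (x axis, log scale), where each point is 1 member; the member with 16 introns had 107 reads and the one with 2474 reads had 5 introns.

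The members had 36472 reads, 16.3% (16.2 to 16.5) of the 223396 reads that entered locus counts. Of the 135442 reads outside the library's most abundant locus, they held 26.9% (26.7 to 27.2). Depth was uneven among them, with a median of 59 reads per member (quartiles 28 and 123) and a range of 2 to 2474. The 5 members with the most reads held 26.0% of all member reads. At the other end, 7 members had fewer than 10 reads. The lowest, on sequence 3 at 2323946 to 2325570, had 2 reads that each crossed the same 5 introns and shared start, end and strand, so it counts as 1 alignment when such copies are counted once.

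The label was checked against the strand, overlap and ends of the introns. All introns lay on 1 strand at 227 of the 233 members. By the larger number of introns, 112 members ran on the plus strand and 121 on the minus strand. At 5 of the 6 exceptions a single intron lay on the opposite strand. The sixth, on sequence 9 at 2978511 to 2984270, had 3 plus introns and 6 minus introns. After introns on the strand with fewer introns, and those that overlapped a better supported one, were set aside, 1525 introns in non-overlapping order remained, and 225 members still had 5 or more. The other 8 reached the limit only with overlapping introns, and they include the member with the most reads. At 4 members a commonest cDNA end did not lie outside the introns on its own side. On sequence 2 at 5383653 to 5385663 the 5' end lay past the 3' side of all 6 introns, and on sequence 6 at 612224 to 615811 the 3' end lay inside a gap. The other ends lay between introns, at a 5' end on sequence 7 at 5569764 to 5576168 and at a 3' end on sequence 2. The sequence 2 locus, at 6455086 to 6459768, had its commonest 3' end at 6458119, with 6 introns before it and 4 after it.

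The member with the most introns lay on sequence 1 at 1207378 to 1213183, on the plus strand. It had 107 reads and 16 introns. The first 3 introns were 157, 178 and 130 bases long with 19, 21 and 21 spliced reads. The eighth was its longest, at 535 bases from 1209600 to 1210134 in 9 reads, and the last was 179 bases in 2 reads. Its 15 inner exons included lengths of 32, 33 and 39 bases. Single reads bridged all neighbouring introns but 1 pair, across the 143-base exon from 1211831 to 1211973, and the longest bridged run held 13 introns. A bridging read ties only the introns it holds to the same cDNA. No read of this locus held more than 4 introns, so the run was joined from different reads.

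On sequence 16 at 5967516 to 5976596, a minus-strand locus had 15 introns on 36 reads over 9081 bases, the longest member. No intron of it was shorter than 169 bases, the longest had 586 bases, and the median was 401 bases. Each was seen in 2 to 6 reads. Stretches of 842 and 640 bases between neighbouring introns were not bridged by a read, so they were not shown to be single exons. Stretches of 153, 151, 145 and 64 bases were not bridged either, and the longest bridged run held 3 of the 15 introns. Its median intron compares with 257.5 bases at the locus with 16 introns and with a median of 202 bases (quartiles 162 and 258.5) over the medians of all 233 members.

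Both loci with 13 introns had low depth. The one on sequence 9 at 4683712 to 4688395 had 57 reads, 3 to 9 spliced reads per intron and introns of 88 to 486 bases. The one on sequence 16 at 2189619 to 2194537 had 53 reads, and its introns in order from the 5' side began with 77, 103, 143 and 202 bases and reached 270 bases at the fifth. Its shortest intron was thus its first, while at the sequence 9 locus the third was the shortest.

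Both cDNA ends were mapped at 4 of the 10 members with the most introns, all with more reads. On sequence 17 at 263115 to 267736, 12 introns of 83 to 473 bases lay between ends 4596 bases apart. That distance less these introns gave a cDNA of 2485 bases. No read there held more than 2 introns, and the longest bridged run held 6 of the 12. The first 3 introns were 99, 88 and 83 bases long. On sequence 15 at 1329402 to 1335096, 475 reads gave 11 introns with 13 to 38 spliced reads each and a cDNA of 2371 bases over 5683 bases of genome. There the first intron had 91 bases and the last 527 bases. On sequence 1 at 8047609 to 8053051, 436 reads gave 11 introns within a narrow range of 132 to 314 bases. On sequence 2 at 9113318 to 9119043, 302 reads gave 11 introns, and here the first intron, with 439 bases, was the longest of the locus. The order of lengths was therefore not the same at every member.

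The remaining locus with 12 introns, on sequence 12 at 3383122 to 3387005, had 96 reads and compact introns of 62 to 255 bases.

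**Figure D2:**
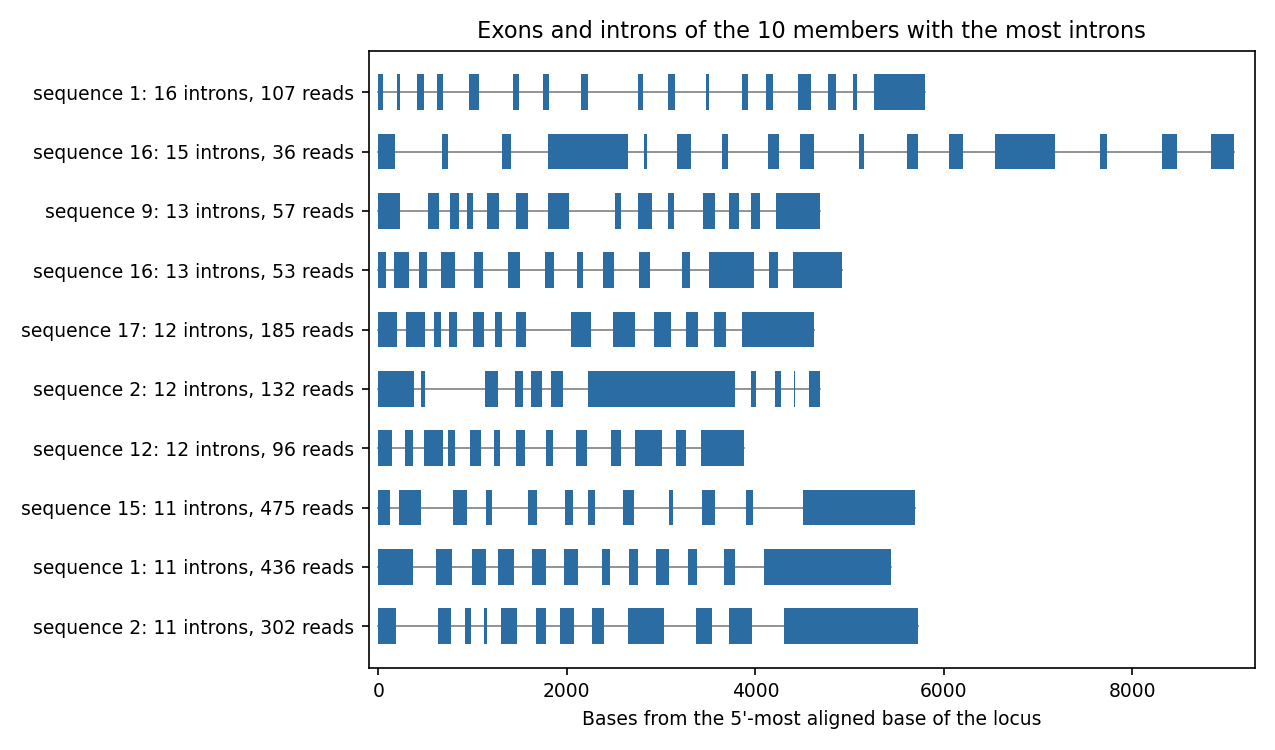
Exons (blue boxes) and introns (grey lines) of the 10 members with the most introns, drawn 5' to 3' in bases from the 5'-most aligned base (x axis), with 1 locus per row. Boxes run between neighbouring introns, whether or not reads cover them throughout, and the wide box of 1562 bases in the sequence 2 locus with 12 introns holds its commonest 3' end. The sequence 16 locus with 15 introns is the longest at 9081 bases.

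Intron length changed along the members' transcripts. The first introns had a median of 120 bases (110 to 150), the second 164 (145 to 183), the third 198 (177 to 213), the fourth 238 (217 to 254) and the fifth 238 (218 to 255). From the fourth to the seventh, medians stayed between 228.5 and 245 bases, and the eighth had 210.5 (194 to 241). Counted from the 3' side, the last introns had a median of 241 bases (212 to 264), close to those before them. Introns were thus shortest at the 5' side, with overlapping intervals from the fourth to the eighth.

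Within a member, the first intron was on median 61 bases (40 to 78) shorter than the median of the later introns. It was the shorter one at 163 of 233 members (95% interval 63.6 to 75.8%). The first intron was the shortest of all at 86 members (36.9%, 30.7 to 43.5) and the longest at 32 (13.7%, 9.59 to 18.8). The last intron was the shortest at 15 (6.44%, 3.65 to 10.4). If the shortest intron fell at any order equally often, 16.4% would be found at each end, given the number of introns per member. Against the second intron alone the first was on median only 5 bases shorter, with an interval from 18 bases shorter to 3 longer, so the step between these neighbours was not resolved.

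The medians at the 5' side moved with the share of very short introns. Introns of up to 100 bases made up 39.1% of the first introns (91 of 233), 24.5% of the second (57 of 233) and 15.5% of the third (36 of 233). Their share was 6.90% at the fourth (16 of 232), 3.11% at the fifth (7 of 225) and 1.37% at the sixth (2 of 146). At the seventh none of 83 introns was this short, which allows a share of up to 3.61% by the limit of 3 counts and of up to 4.35% by the exact interval. Long introns followed the order less: introns over 400 bases were 11.2% of the first (7.42 to 15.9) and 14.7% of the fifth (10.3 to 19.98). At members with a mapped 5' end these shares were 9.59% (3.94 to 18.8, n = 73) and 22.4% (13.1 to 34.2, n = 67). The sixth introns there had 7.69% (1.62 to 20.9, n = 39), and all these intervals overlap.

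Because the first intron seen need not be the first of the transcript, the order was checked at the 73 members with a 5' cDNA end in front of it. Such an end needed at least 10 reads at the locus that began after 34 to 44 unaligned bases, at any position. The commonest start among them was taken as the end, so fewer than 10 reads can lie at that base. These members had medians of 113 bases (95 to 156) at the first intron, 145 (115 to 161) at the second, 198 (143 to 225) at the third and 214.5 (179 to 261) at the fourth. The first intron was shorter than the median of the later ones at 49 of the 73 (67.1%, 55.1 to 77.7). The 160 members without such an end had 131.5 bases (112 to 157) at the first. Members with 5 or 6 non-overlapping introns had a first median of 118 bases (104 to 161), and those with 7 or more had 118 bases (98 to 152). Shorter introns at the 5' side were therefore seen with and without a mapped 5' end and in both classes of intron number.

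**Figure D3:**
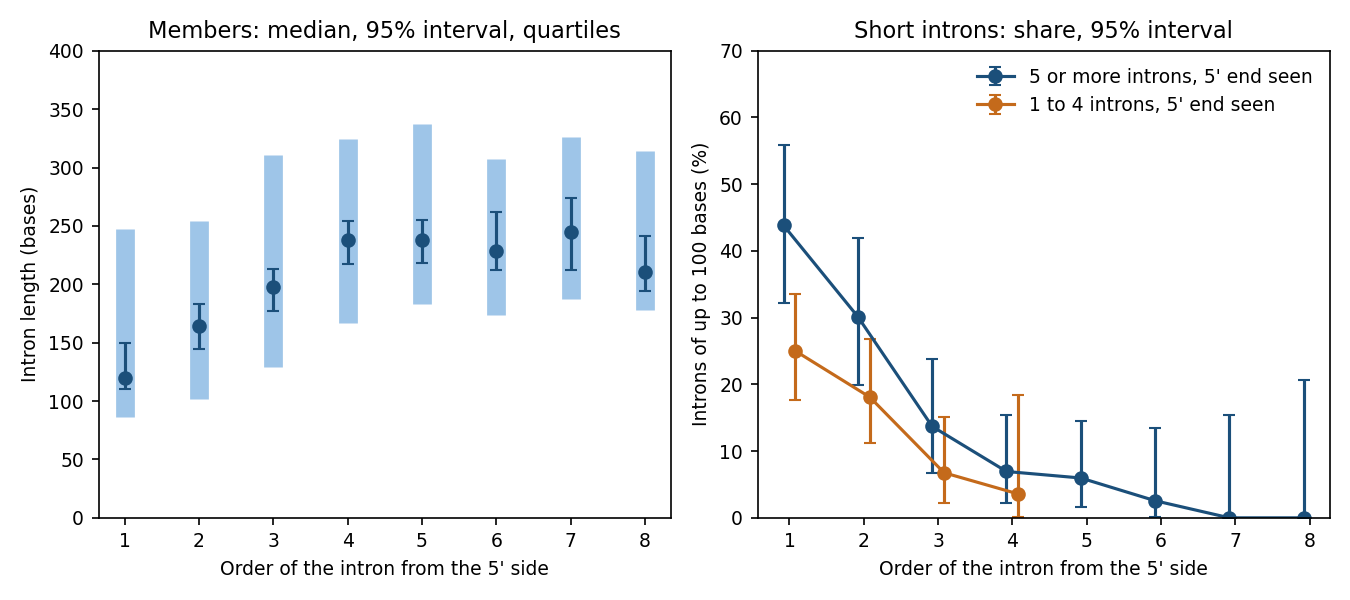
Left, intron length in bases (y axis) by order from the 5' side (x axis) at the 233 members, with medians as points, 95% intervals as bars and quartiles as pale bands; medians run from 120 bases at the first intron to 238 at the fourth. Right, share of introns of up to 100 bases in percent (y axis) by order, with 95% exact intervals, at the 73 members and the 124 loci with 1 to 4 introns that have a mapped 5' end; it is 43.8% for the members' first introns and 25% for those of the other loci.

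Length also differed by distance from the 5' end of the cDNA. At the 73 members with a mapped 5' end, introns with up to 99 exonic bases in front of them had a median of 133.5 bases (90 to 172, n = 28). Those with 100 to 199 bases in front had 114 (99 to 152, n = 71). Those with 200 to 399 bases in front had 177 (158 to 225, n = 137), those with 400 to 799 had 217.5 (203 to 255, n = 146), and those with 800 or more had 205 (192 to 256, n = 76). The medians did not rise at every step: the nearest class lay above the next, and the farthest below the one before it, each with overlapping intervals. Among introns 200 to 399 bases from the end, the second introns had a median of 148.5 bases (100 to 232, n = 32) and the third or later ones 206.5 (164 to 252, n = 94). Their intervals overlap, so order and distance could not be separated here.

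The pattern was not shown to be particular to the intron-rich loci. At the 124 loci with 1 to 4 introns and a mapped 5' end, the first introns had a median of 149 bases (126 to 180) and the second 223 (193 to 257). The first was shorter than the median of the later ones at 79 of the 105 of these loci with 2 or more non-overlapping introns (75.2%, 65.9 to 83.1). The members' first introns of 113 bases (95 to 156) had an interval that overlaps that of the first introns there. Between sequences the pattern varied. Of the 10 sequences with at least 10 members, 9 had a negative median difference between first and later introns, the exception being sequence 9 with first introns 74.75 bases longer (12 members, from 68 shorter to 217 longer). On sequences 3, 10, 13 and 16, too, the interval of the difference included 0, so that 5 of the 10 had an interval below 0.

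Taken over all orders, intron length at members was close to that elsewhere. The median was 206 bases (200 to 213, n = 1563) at members and 216 (212 to 221, n = 2852) at loci with 1 to 4 introns, and the intervals overlap. Quartiles were 142 and 308.5 bases at members, against 142.75 and 313 elsewhere. Introns of up to 100 bases made up 13.8% (12.1 to 15.6) at members and 12.2% elsewhere, within the members' interval. Introns longer than 1000 bases, the value of the aligner's intron limits, numbered 19 at members and reached 2141 bases.

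Members ranged from compact to extended. The shortest median intron, 69 bases, was found on sequence 6 at 1188027 to 1189689, where 114 reads gave introns of 196, 68, 69 and 321 bases in transcript order plus a variant of 65 bases in 2 reads. The longest median, 611.5 bases, was found on sequence 15 at 816568 to 822186. Its 66 reads gave introns of 177, 786, 1135, 409, 511 and 712 bases from the 5' side. At both loci the number of reads per intron was low, with at most 21 at the first and 11 at the other.

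GT-AG borders were found at 1523 of the 1563 member introns (97.4%, 96.5 to 98.2), against 98.2% (97.7 to 98.7) at loci with 1 to 4 introns. GC-AG borders were found at 26 (1.66%, 1.09 to 2.43), against 1.65% (1.21 to 2.19). AT-AC borders were found at 3 member introns and not at loci with 1 to 4 introns. Other borders were found at 11 member introns (0.704%, 0.352 to 1.26), against 3 of 2852 (0.105%, 0.0217 to 0.307), and these intervals do not overlap. Of the 11 introns with other borders, 6 were gaps that spanned an exon lying between other introns of the same locus.

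Exons of the members were short inside and long at the 3' end. Inner exons held whole between introns in 1 read had a median of 85 bases (81 to 88, n = 953) and ran up to 210 bases, a range that read length limits. At loci with 1 to 4 introns, they had 84.5 bases (82 to 87, n = 948). The first exon, up to the first intron seen, had a median of 121 bases (quartiles 84 and 180, 73 members) and the last one 543 bases (quartiles 417 and 748.5, 80 members). At loci with 1 to 4 introns these were 150 bases (quartiles 86 and 240.75, 124 loci) and 568 bases (quartiles 383.5 and 763.5, 136 loci). An intron missed in a terminal exon would lengthen it.

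Over all members, inner exons too were shortest at the 5' side. Exons between the first and second introns had a median of 68 bases (62 to 75, n = 191) and those after the second intron 77 (72 to 82, n = 175). The next had 90.5 (85 to 96, n = 174) and 91 (83 to 99, n = 157). With distances between neighbouring introns that no read bridged included, these 4 medians were 78, 87, 102.5 and 111 bases. At members with a mapped 5' end, the 4 bridged medians were 69 (56 to 85, n = 67), 84 (71 to 98, n = 63), 90.5 (85 to 110, n = 62) and 91 (75 to 103, n = 57). These intervals overlap, so the rise of exon length was not resolved there. Over all members, short exons and short introns thus shared the 5' side of the introns seen.

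**Figure D4:**
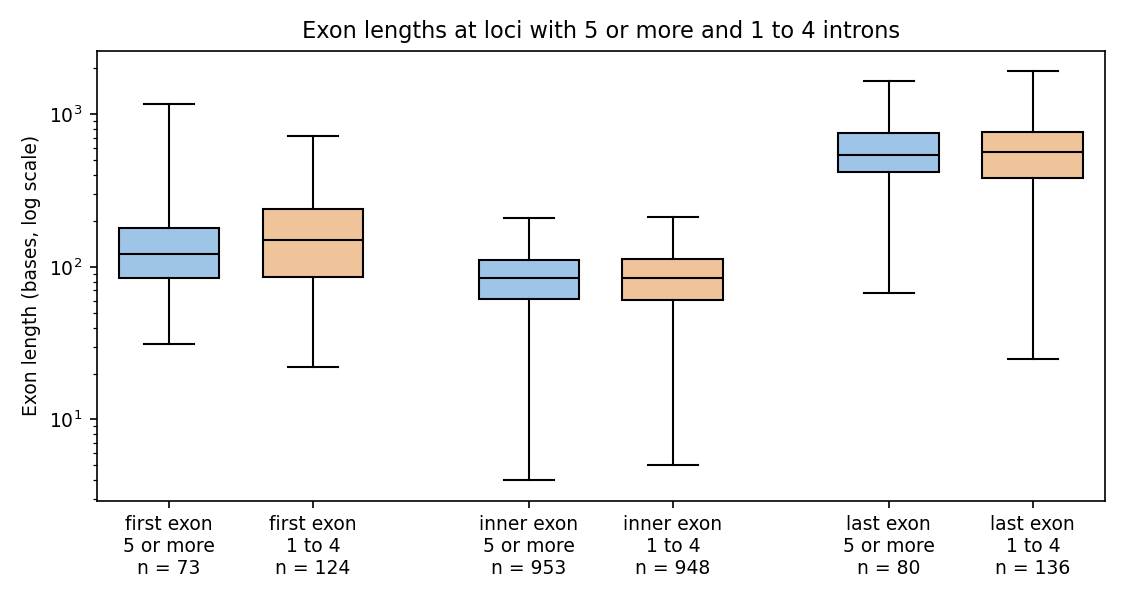
Exon length in bases (y axis, log scale) of first, inner and last exons at members (5 or more introns, blue) and at loci with 1 to 4 introns (orange), with the number of exons under each box. Boxes show quartiles and median, whiskers the lowest and highest value; last exons have medians of 543 and 568 bases, above the inner ones of 85 and 84.5.

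A length divisible by 3 keeps the reading frame when an exon within the coding part is added or left out. Inner exons of members had such a length in 427 of 953 cases (44.8%, 41.6 to 48.0). Remainders of 1 and 2 were found for 29.3% (26.4 to 32.3) and 25.9% (23.2 to 28.8). Member introns were divisible by 3 in 33.5% (31.2 to 35.9). At loci with 1 to 4 introns, the shares were 44.1% (40.9 to 47.3) for inner exons and 32.8% (31.1 to 34.5) for introns, so the same contrast between exons and introns was present there.

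Both cDNA ends were mapped outside the introns at 63 members. The cDNA between them had a median of 1158 bases (1040 to 1332) over a median genome distance of 2741 bases. The cDNA length is that distance less the non-overlapping introns seen, so a missed intron would lengthen it. At the 108 loci with 1 to 4 introns and both ends, the medians were 935.5 bases (832 to 1067) and 1749.5 bases. Introns took a median of 53.6% of the distance between the ends at the members, against 37.8% elsewhere, as the choice by intron number favours. The members had a median of 5.27 non-overlapping introns per kb of cDNA, with quartiles of 3.94 and 5.997.

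The extremes of cDNA length had the same number of introns. The shortest, of 458 bases, lay on sequence 10 at 440025 to 441260. Its 5 introns of 138 to 164 bases filled most of a genome distance of 1223 bases, and the inner exons had 53, 106, 102 and 69 bases. The longest, of 2984 bases, lay on sequence 16 at 1563699 to 1568237. It had 5 introns of 147 to 552 bases between a first exon of 1167 bases and a last exon of 1166 bases. Loci with 5 introns thus covered the whole range of cDNA lengths among the 63 members.

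Single reads bridged 953 of the 1292 pairs of neighbouring introns at members (73.8%, 71.3 to 76.1). Unbridged pairs lay a median of 198 bases apart on the exon side, against 85 bases for bridged ones. All pairs were bridged at 64 members, and a run of 5 or more introns was bridged pair by pair, by the same or different reads, at 105. Of the 36472 member reads, 17744 had a gap with a splice direction (48.7%, 48.1 to 49.2). Reads with 2 or more introns numbered 6943, those with 4 or more 95, and those with 5, the most in 1 read, 8.

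Among the 5 members with the most reads, spliced reads were spread differently along the introns. The locus on sequence 8 at 220020 to 223051 had 2474 reads. Its 4 non-overlapping introns had 646, 466, 266 and 539 spliced reads in order from the 5' side. The lowest number belonged to the 1054-base intron from 220992 to 222045. The fifth intron that made this locus a member was a copy of the last one, moved by 4 bases at both borders, in 4 reads.

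A plus-strand locus on sequence 6, from 3977887 to 3980031 with 2266 reads, had 189, 220, 269, 293, 324 and 336 spliced reads from the 5' to the 3' side, and its first intron of 81 bases was its shortest. Its neighbour from 3950106 to 3954224, with 1935 reads, had 111 to 166 spliced reads at its 8 non-overlapping introns, of 152 to 377 bases. Its first intron was again its shortest and its last the longest.

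The locus on sequence 12 at 1838376 to 1841488 had 1509 reads and 205, 219, 90, 50 and 72 spliced reads at its 5 introns. Only 2 of these introns remained among reads with exactly 1 alignment, so most of its introns rest on reads that also aligned elsewhere. On sequence 10 at 1160697 to 1163209, 1303 reads gave 111, 164, 150, 166 and 138 spliced reads at introns of 329, 150, 209, 192 and 175 bases. Only the 81-base and 152-base first introns of sequence 6 were the shortest of their locus in this group of 5.

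**Figure D5:**
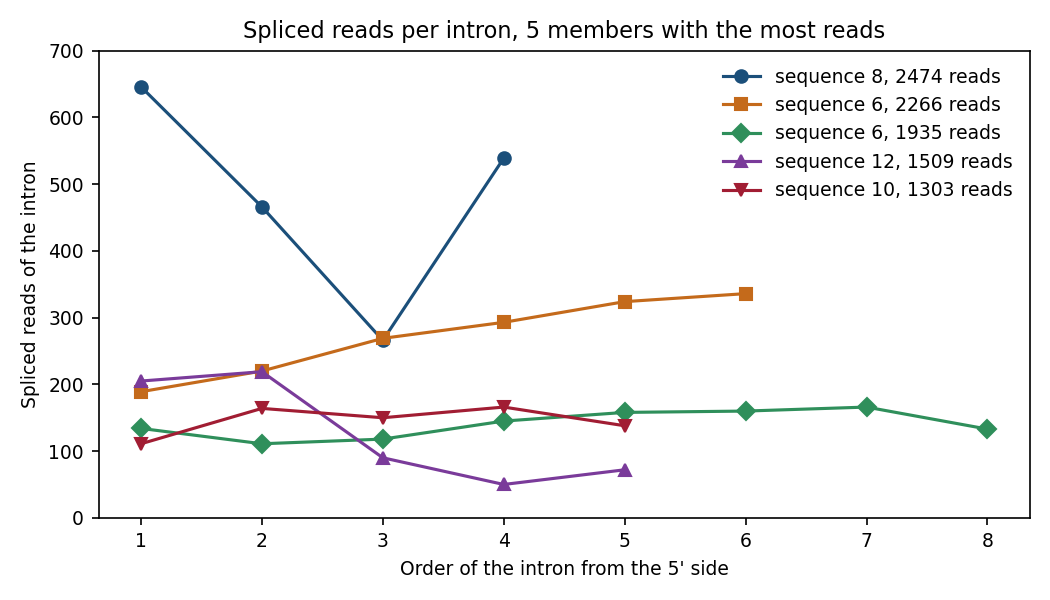
Spliced reads (y axis) at each non-overlapping intron in order from the 5' side (x axis) at the 5 members with the most reads, 1 line per locus. The sequence 6 locus with 2266 reads has 189 at its first and 336 at its last intron, and the sequence 12 locus has 205 at its first and 72 at its last.

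Unspliced reads crossed a border of a non-overlapping member intron in 290 of 51902 crossings (0.559%, 0.496 to 0.627). At 1421 of the 1525 introns no such crossing was seen. At loci with 1 to 4 introns, 223 of 52845 crossings were unspliced (0.422%, 0.369 to 0.481). The members' total rested on few introns. Introns crossed unspliced in most cases numbered 6 at members and 0 at loci with 1 to 4 introns. Without these 6, the members' share was 0.327% (0.279 to 0.380).

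The largest of these was the last intron of the locus on sequence 7 at 2504933 to 2507035, from 2505078 to 2505118. It is 41 bases long and had 58 unspliced border crossings against 2 spliced reads. An unspliced read counts at each border it crosses, so crossings are not numbers of reads. In the shares, a spliced read counts at both borders. On sequence 6, the 66-base gap from 613988 to 614053 had 19 unspliced border crossings against 5 spliced reads. This gap covers the commonest 3' end of its locus at 613999. Among introns with strong splicing, the 1054-base intron on sequence 8 had 14 unspliced border crossings against 266 spliced reads. By number of spliced reads, member introns with 2 to 4 had 3.43% unspliced crossings (2.87 to 4.08), and 0.654% without 5 introns crossed mostly unspliced. Those with 5 to 9 spliced reads had 1.13% (0.868 to 1.44), those with 10 to 49 had 0.310% (0.224 to 0.417) and those with at least 50 had 0.202% (0.153 to 0.261). At loci with 1 to 4 introns the same classes had 0.635% (0.494 to 0.803), 0.276% (0.143 to 0.481), 0.686% (0.536 to 0.864) and 0.260% (0.203 to 0.328). Members were thus higher at 2 to 4 and 5 to 9 spliced reads and lower at 10 to 49, while the intervals overlapped from 50 on. Spliced reads set the class and also enter the share. An intron crossed mostly unspliced therefore tends to fall in a low class and raises the share there, so the classes do not separate depth from read-through. Without the introns crossed mostly unspliced, the intervals overlapped at 2 to 4 spliced reads too. At 5 to 9 they stayed apart, with 0.795% (0.581 to 1.06) at members against 0.276% (0.143 to 0.481). The introns left out were picked by the share compared and only members held any, so their removal is not a neutral check.

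Donors or acceptors shared by introns, with at least 2 reads for each partner, were few. They numbered 16 at 15 members, 5 donors with 2 acceptors and 11 acceptors with 2 donors. Loci with 1 to 4 introns had 7 such sites among 2852 introns, against the 16 among 1563 at members. Member introns also had more reads, with a median of 5 against 3. In 9 of the 16, the partners differed by 1 to 6 bases. One of these was on sequence 16 at 3882692 to 3884453, where 1 donor joined acceptors 6 bases apart in 5 and 8 reads. On sequence 5 at 1537132 to 1540506, acceptors 3 bases apart had 13 and 3 reads. On sequence 12 at 380987 to 382959, the shorter variant of 301 bases had 2 reads and GT-AG borders, against 111 reads and GC-AG borders for the 305-base one. Shared acceptors on sequences 6, 9 and 10 likewise had a second donor 2 or 4 bases away, in 2 reads. Some other shared sites belonged to the gaps across short exons with moved borders given below. Whether these were sites used in splicing was not tested.

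Larger changes left out or added whole stretches. On sequence 2 at 6455086 to 6459768, an exon of 57 bases from 6457128 to 6457184 was included by introns of 86 bases in 4 reads and 121 bases in 2 reads. An intron of 264 bases with exactly the outer borders skipped it in 8 reads. The length of 57 bases is divisible by 3. On sequence 7 at 5569764 to 5576168, the first intron had 1328 bases in 3 reads or 408 bases in 2 reads, with the same acceptor.

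At 7 further members, an exon of 13 to 18 bases was spanned by an alternative intron whose outer borders were moved. On sequence 4 at 2902233 to 2906533, the 17-base exon from 2902393 to 2902409 was flanked by introns with 44 and 41 reads. The spanning gap, in 2 reads, began 12 bases later and ended 3 bases earlier. On sequence 9 at 1426639 to 1428814, the 15-base exon from 1428152 to 1428166 had 9 reads on either side and 5 reads across, with 1 border unmoved and the other moved by 18 bases. On sequence 2 at 4463643 to 4467053, the 18-base exon from 4464421 to 4464438 had 5 and 4 reads on its sides and 7 across. In all 7 cases the outer borders moved by 8 to 18 bases in sum, and whether these cDNAs lacked the exon was not tested. The other spanned exons had 3 bases, on sequence 1 at 3944654 to 3947035, and 58 bases, on sequence 12 at 5229505 to 5232258.

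The members were spread over all of sequences 1 to 17, unevenly. Sequence 12 had the most, with 40, followed by sequence 2 with 33 and sequence 1 with 25, while sequence 14 had 1. As a share of the loci with an intron, members made up 14.4% (10.5 to 19.1) on sequence 12, 16.0% (11.3 to 21.8) on sequence 2, 13% (8.61 to 18.6) on sequence 1 and 2.86% (0.0723 to 14.9) on sequence 14. The highest share was 21.4% (8.30 to 41.0) on sequence 15, from 6 members. All these intervals overlap.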

How the data were processed

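For the N-replete cells the authors deposited alignment records of single reads, up to 5 places each. Per the file headers they came from GMAP, run with limits of 1000 bases on intron length. The submitters' processing notes name GSNAP. For the genome build, nothing is stated in the sources used here. Genes of the available table (assembly v5.5) ended past the end of the same-numbered sequence on 11 of 16 sequences, so no gene was assigned, and positions are in the build of the records.

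Each read kept its best place, by identity times the share of it aligned. Reads with a non-overlapping place within 0.1 percentage points were dropped, 16189 of 239585 aligned reads, which left 223396. Loci are runs of overlapping alignments on either strand. Gaps of at least 20 bases in reads with a splice direction were introns, merged by start, end and strand. For order along the transcript, introns of the strand with more introns were taken from the most reads down, without overlaps. A 3' end needed at least 10 reads at the locus that began after 45 to 57 unaligned bases, and their commonest start was taken. A crossing needed 10 aligned bases on each side. An unspliced read counted at each border it crossed, and a spliced read at both borders. Named loci are the 10 with the most introns, the 5 with the most reads and the extremes of median intron and cDNA length. Up to 10 with shared donors or acceptors were also named. Others were named after their values were seen. Members and measures were chosen with earlier results of these data known.

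Intervals are exact Clopper-Pearson for shares and from order statistics for medians. Introns and loci are not replicates, so no test was made. The steps were tested on simulated alignments. PCR amplification and size selection of the cDNA, per the labels' protocols, can change read numbers. Alternatives are given in the closing section. Computations used numpy 2.4.6 and scipy 1.17.1 under Python 3.11.15; plots used matplotlib 3.10.9.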

Additional observations from a re-analysis of the deposited data

Results flagged for a closer look

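Introns of the members seen in only 1 read entered none of the values above and numbered 237. Of these, 53 shared exactly 1 border with an intron seen in at least 2 reads, in 54 pairings. The moved border was the donor in 42 pairings and the acceptor in 12. Donors moved 4 bases into the intron in 18 pairings and 2 bases in 17, while no other distance of the donor was found more than 2 times.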

How the results depend on the processing

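The first intron stayed shorter on median than the later ones under each of 8 alternatives (median difference -71 to -50.5 bases). A minimum of 5 reads per intron left 105 members with 662 introns, and a minimum of 10 left 53 members with 329 introns and 14 of the 26 named loci. With these minimums the members' share of reads was 12.5% and 10.6%, the median intron 198.5 and 193 bases, GT-AG borders 98.6% and 98.2%, read-through 0.325% and 0.189%, bridged pairs 80.7% and 83.0%, shared donors or acceptors 2 and 0, and members with introns on both strands 0 and 0. The minimum of 10 also moved the median inner exon to 89 bases and introns divisible by 3 to 37.7%. Keeping only alignments with 95% identity or more over 90% of the read or more gave a read share of 28.7%, read-through of 0.206%, 3 members with both strands and 9 shared sites. The read share was 16.6% among reads with exactly 1 alignment and 26.8% with duplicates counted once. A minimum gap of 50 bases gave read-through of 0.457%. Introns of 1 strand left, by construction, 0 members with both strands. The first minus the second intron, chosen after seeing the data, gave -5 bases. Where an alternative moved a value the cause was not tested, beyond the fewer introns that a higher minimum leaves. No paired analysis was possible because each group has 1 library and only 1 was analysed. With a median of 5 reads per member intron, rare splice variants could go unseen.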
